A study of Mus musculus with 19 samples.

Results

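The 8 control libraries of a study of FMRP-bound RNA in the mouse hippocampus, 4 made at 5 min and 4 at 30 min, were compared with each other. They were chosen by their titles from 19 libraries in all, and no library from activated tissue entered the comparison. All 8 came from the CA1 region of mice carrying Camk2a-Cre and the Fmr1 cTag allele, which ties a purification tag on FMRP to Cre recombinase, and all had received AAV-Control, the vector used in place of AAV-ChR2. The ages, the number of animals behind a library and any pooling are not given in the sources used here, so p-values measure the spread between libraries, which may be technical. The Camk2a promoter that drives Cre limits the purified FMRP to Camk2a-Cre cells. The protocol in the labels is the same for every library: acute slices were taken through the optogenetic procedure, crosslinked with ultraviolet light, then dissected and lysed in buffers holding cycloheximide, a drug that stalls ribosomes. Among the controls, the labels of the 5 min libraries alone carry a field that marks their files as new. Time and deposit batch therefore coincide and cannot be told apart anywhere in this comparison.

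FMRP, the product of Fmr1, is an RNA-binding protein that is abundant in neurons and is best known for holding back the translation of the mRNAs it binds, many of which encode synaptic proteins. Its loss causes fragile X syndrome. In CLIP, light-induced crosslinks fix the protein to the RNA it touches, and each recovered RNA fragment counts as a tag of the transcript it came from. A transcript's share of the tags reflects both how much of the RNA is present and how much of it FMRP holds, and these cannot be told apart here, nor can fewer cells of a type and less RNA per cell.

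Every transcript is named in the deposited tables by an Ensembl transcript ID alone. None of the tested IDs was found in the gene table used alongside, so no transcript could be given a gene name, a position or a sequence, and the CA1 and Camk2a identity could not be checked against marker genes. Transcripts are described by their level, their behaviour across libraries and their ID. At most 2 IDs are printed in each direction, and the others are called by their rank.

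The 4 libraries at 5 min held 40173 to 341445 tags, an 8.50-fold range, and the 4 at 30 min held 81588 to 192471, a 2.36-fold range. Their geometric means were nearly equal, with a 5 min to 30 min ratio of 0.949 (p = 0.943, exact two-sided permutation test, 70 arrangements, smallest possible p 0.0286). Arithmetic means gave a ratio of 1.18, so the direction depended on the kind of mean. Together the 8 libraries listed 44346 transcripts, of which 6183 had a tag in every library. Transcripts listed per library numbered 20887 ± 8107 (SD, n = 4) at 5 min and 21317 ± 3215 (SD, n = 4) at 30 min. When each library was thinned to 40173 tags the numbers were 11507 ± 648 and 11710 ± 270.5 (SD, n = 4 each; p = 0.800, exact two-sided permutation test). The 10 largest transcripts of each library held 6.76% ± 1.72 of its tags at 5 min and 6.75% ± 0.658 at 30 min (SD, n = 4; exact permutation p = 1). In all 6 measures of the libraries were tested, and each had a Benjamini-Hochberg adjusted p of 1 in the exact permutation test.

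Correlations between libraries overlapped within and between the times. Over 454 tested transcripts averaging 50 tags or more, the Pearson correlation of log2 CPM (tags per 1000000 tags of the tested transcripts, scaled by TMM) ran from 0.802 to 0.943 between libraries at 5 min, from 0.813 to 0.964 between libraries at 30 min and from 0.686 to 0.925 between the times. These correlations are across transcripts, which are not independent, and are given without a test. The lowest means over a library's 7 correlations were 0.811 in 30 min replicate 1 and 0.816 in 5 min replicate 2, which are also the shallowest libraries of their times. The other 6 libraries had means of 0.879 to 0.897. The tags of any 2 libraries of a time differed by more than sampling noise, with a chi-square per degree of freedom of at least 1.28. None was therefore treated as a second reading of the same library. Whether libraries share starting material cannot be told from these values.

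Which transcripts differed between the times was asked with edgeR's quasi-likelihood test on the 8 libraries alone, over 3095 transcripts that passed the filter on low counts. Those with a Benjamini-Hochberg adjusted p under 0.05 are called passing. There were 18 passing transcripts (0.582% of those tested), and all 18 were lower at 5 min than at 30 min. Their fold differences ran from 1.89 to 7.19, with a median log2 fold change, 5 min over 30 min, of -1.41, against a median of 0.03 over all tested transcripts. On the higher side 0 passed in edgeR, DESeq2 and limma voom, and the smallest edgeR adjusted p was 0.118, although 1 passed in edgeR when the filter on low counts was dropped. At an unadjusted p under 0.05, 145 were lower (4.68% of those tested) and 112 higher (3.62%). This balance depended on the scaling and the filter: library totals alone gave 123 lower and 147 higher, and no filter gave 714 lower and 953 higher. On the log2 scale 31 transcripts lay under -1 and 18 above 1. The 31 include every passing transcript but that of rank 17, at -0.92, so this count is not separate from the passing result. All 18 above 1 averaged under 20 tags, and at that level 17 lay under -1.

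**Figure D1:**
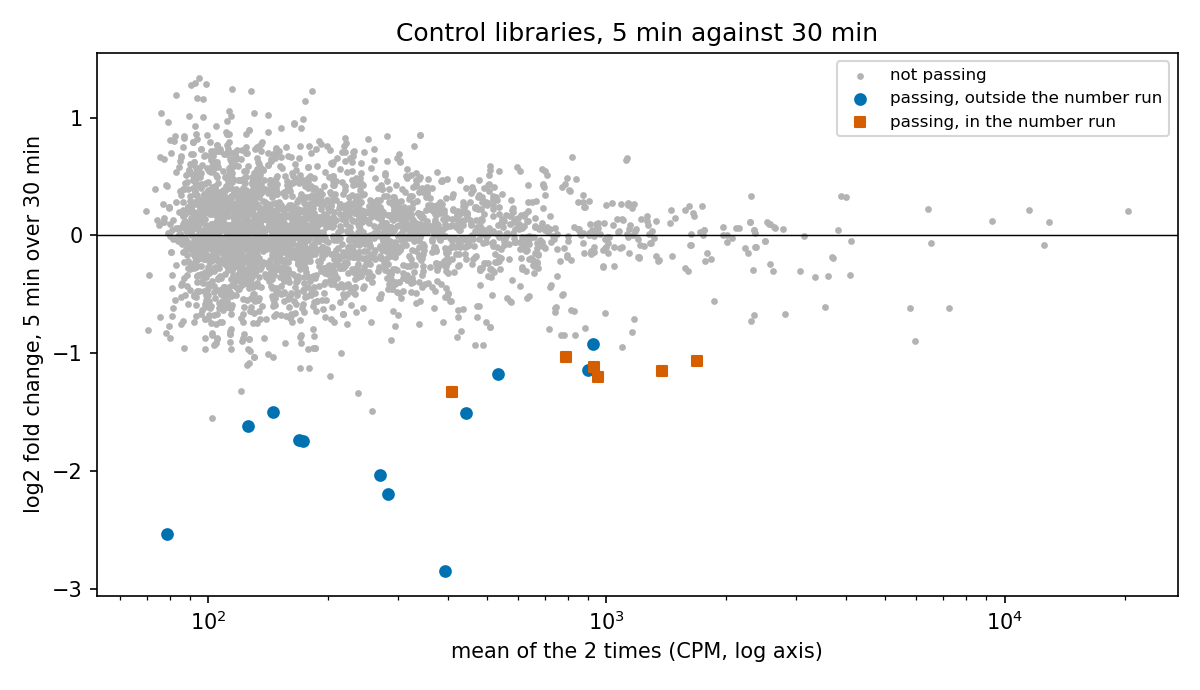
Each point is 1 of the 3095 tested transcripts, with its mean level in CPM (log axis) against its log2 fold change, 5 min over 30 min, in the control libraries. The 18 passing transcripts all lie between -2.85 and -0.92, 6 of them (squares) in the run of neighbouring Ensembl numbers, and no transcript above 0 passed.

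The number of passing transcripts depended on which library was left out. It was 2 without 5 min replicate 1, 3 without 5 min replicate 3, 3 without 30 min replicate 4 and 5 without 30 min replicate 3. It was 17 without 30 min replicate 1 and 18 without 5 min replicate 4. It rose to 33 without 5 min replicate 2 and to 39 without 30 min replicate 2. All were lower at 5 min in each case. Each of these fits filtered the transcripts anew, with 2847 to 3886 tested, and had 3 libraries at 1 of the times. A fit of all 16 Cre-positive libraries, in which the activated libraries help set the spread, gave 5, all among the 18. Counts thinned to the shallowest library left 7 of 678 transcripts passing, of which 6 were among the 18.

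The transcript with the smallest p, ENSMUST00000173672, passed under all 20 alternatives run. It had 852, 464, 911 and 558 CPM in replicates 1 to 4 at 30 min. At 5 min it had 101, 73.4, 80.9 and 96.9 CPM. The lowest library at 30 min lay well above the highest at 5 min. The 5 min values rest on 24, 2, 6 and 14 tags and the 30 min values on 45 to 85. The log2 fold change was -2.85 (SE 0.29, 95% interval -3.44 to -2.25, edgeR adjusted p = 4.22e-06), a 7.19-fold difference. Over the alternatives its adjusted p was 2.56e-12 to 0.000714 in edgeR, DESeq2 or limma. ENSMUST00000173672 had 0 of the 6478 noCre tags, which come from 3 libraries whose titles give no Cre and stand for the background of the purification. Of these tags 85.8% came from replicate 3, and the genotype label of the 3 libraries still names Camk2a-Cre. The transcript of rank 2, which had 2 noCre tags, passed in the 19 alternatives that tested it.

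The other 17 passing transcripts ranged widely in level, from 138 to 2275 CPM in the mean at 30 min. In 17 of the 18 the groups were apart, with all 4 libraries at 5 min below all 4 at 30 min. Over all tested transcripts, 2.81% were apart in this direction and 2.58% in the other. The 18 were chosen for this same difference, so their separation describes them and does not test it. The exception was the transcript of rank 10 by p, whose 30 min replicate 2, at 745 CPM, lay under the 771 CPM of 5 min replicate 2. The transcript of rank 9 averaged 221 ± 13.5 CPM at 30 min, and its 5 min libraries averaged 70.7 ± 23.5 CPM (SD, n = 4 each). The least abundant, that of rank 5, averaged 138 ± 65.5 CPM in the 30 min libraries against 18.9 ± 13.0 CPM in those of 5 min (SD, n = 4 each). It had 0 tags in 5 min replicate 2, where 3 tags, taken as the limit that a count of 0 allows, would be 110 CPM, and its 5 min values rest on 5, 0, 2 and 4 tags. Those of rank 14 and 15 also had 0 tags in that library.

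**Figure D2:**
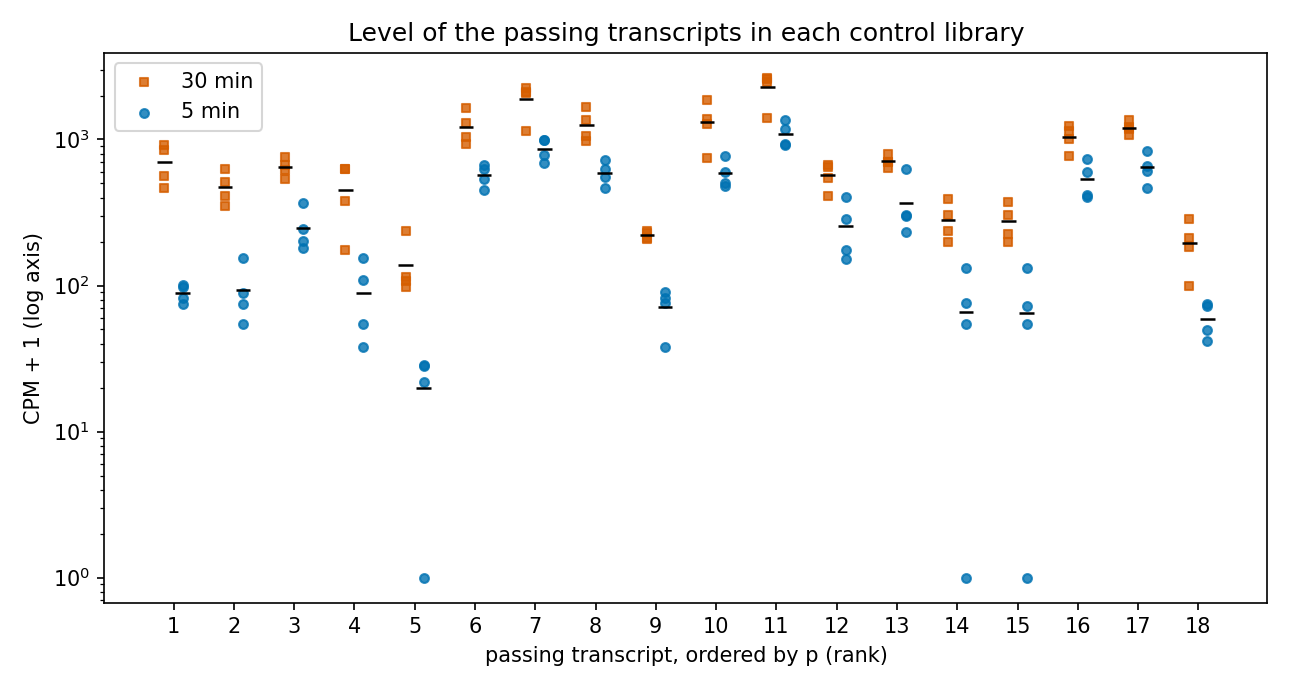
CPM plus 1 (log axis) of the 18 passing transcripts, ordered by p, in each of the 4 libraries at 30 min (squares) and at 5 min (circles), with the group mean as a bar; a point at 1 is a count of 0. The groups are apart in 17 of the 18, the exception being rank 10.

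Not all 18 are separate measurements. The transcripts of rank 14 and 15 had counts within 10% or 1 tag of each other in all 8 libraries, as did those of rank 6 and 8, of which rank 8 lies in the run of neighbouring Ensembl numbers and rank 6 outside it. Tags may have been counted for more than 1 transcript, or divided between them, and how this was done is not given in the sources used here. Joining such transcripts left 16 sets. Among all tested transcripts 248 (8.01%) had the same count as another in each of the 8 libraries, and none of these passed. When identical transcripts were kept once, 21 passed, all 18 among them.

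The share that passed differed by level. Of transcripts with a mean under 20 tags 5 of 1655 (0.302%) passed, of those with 20 to under 50 tags 5 of 986 (0.507%), of those with 50 to under 200 tags 8 of 398 (2.01%) and of those with 200 or more 0 of 56. The median SE of the log2 fold change went from 0.34 in the first of these bands to 0.19 in the last. Of the 56, 7 were lower and 0 higher at 5 min at an unadjusted p under 0.05, against 4.68% and 3.62% of all tested.

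Of the 10 transcripts with the most control tags, 9 overlapped between the times. Over all tested transcripts most overlapped too, with 2.81% apart as lower at 5 min and 2.58% as higher. The most abundant had 11465 to 33343 CPM at 5 min and 16147 to 23824 at 30 min, with a log2 fold change of 0.21 (95% interval -0.33 to 0.74, edgeR adjusted p = 0.946). Its lowest and highest libraries were both at 5 min, the deepest and the shallowest of that time. The second had 10589 to 13623 CPM at 5 min and 10258 to 15284 at 30 min (log2 fold change -0.08, 95% interval -0.50 to 0.33, edgeR adjusted p = 0.981). The sixth and the eighth overlapped but were lower at 5 min at an unadjusted p under 0.05. The sixth had a log2 fold change of -0.62 (95% interval -1.10 to -0.13, edgeR adjusted p = 0.3955). The eighth had -0.61 (95% interval -1.11 to -0.11, edgeR adjusted p = 0.437). Only that of rank 10 was apart, with 2727, 5949, 3356 and 4760 CPM in replicates 1 to 4 at 5 min and 7595, 6778, 8771 and 7562 at 30 min. Its log2 fold change was -0.90 (SE 0.22, edgeR adjusted p = 0.0670), just short of the threshold. Together the 10 held 6.69% ± 1.73 of all tags at 5 min and 6.72% ± 0.645 at 30 min (SD, n = 4).

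The 2 leading transcripts on the side that was higher at 5 min fell short of the threshold. ENSMUST00000165201 had 147, 110, 162 and 125 CPM in replicates 1 to 4 at 5 min and 56.8, 76.0, 32.2 and 48.5 at 30 min. The log2 fold change was 1.34 (SE 0.36, 95% interval 0.60 to 2.08, edgeR adjusted p = 0.118), on 3 to 10 tags per library at 30 min. ENSMUST00000051226 had 113, 147, 162 and 145 CPM at 5 min and 56.8, 38.0, 64.3 and 64.7 at 30 min. Its log2 fold change was 1.28 (SE 0.36, 95% interval 0.55 to 2.02, edgeR adjusted p = 0.140), on 3 to 8 tags per library at 30 min. In both the groups were apart. Neither passed under any alternative that gave an adjusted p.

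Passing transcripts were partly gathered in a run of neighbouring Ensembl numbers. The run was looked for after the values were seen. It is the longest series of tested transcripts whose numbers follow each other in steps of at most 3, with 31 members where the next longest has 4. It reaches from 31 numbers below ENSMUST00000082418 to 3 above it, and 3 further transcripts in that span fell under the filter on low counts. Of the 31 members 6 passed (19.4%, against 0.582% of all tested and 12 of the 3064 outside the run), all lower at 5 min. At an unadjusted p under 0.05, 11 of the 31 were lower and 0 higher. Of all 3095 tested, 145 (4.68%) were lower and 112 (3.62%) higher at this p. The run was not matched for level with the other transcripts. Without 5 min replicate 1 or 3, without 30 min replicate 3 or 4, or in the fit of all 16 libraries, 0 of the run passed. The number was 6 without 30 min replicate 1 or 5 min replicate 4, and 8 without replicate 2 of either time. It was 7 in the DESeq2 test and 9 in limma voom. With the replicate number fitted as a block it was 4, after thinning 3 and with no filter beyond 1 tag 1.

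The members fell on both sides of 0. The log2 fold changes ran from -1.34 to 0.84 with a median of 0.00, 15 below 0 and 16 above. The 6 that passed lay between -1.33 and -1.03. ENSMUST00000082418, with the smallest p of the run, had 2254, 1147, 2091 and 2103 CPM in replicates 1 to 4 at 30 min and 687, 991, 782 and 996 at 5 min. The groups were apart, although 30 min replicate 2 was close to the 5 min libraries. The log2 fold change was -1.15 (SE 0.22, 95% interval -1.61 to -0.70, edgeR adjusted p = 0.0128), a 2.22-fold difference. It did not pass without 30 min replicate 3 or 4 (edgeR adjusted p = 0.0675 and 0.0695), without 5 min replicate 1 or 3 (0.159 and 0.0951) or in the fit of all 16 libraries (edgeR adjusted p = 0.256), with a log2 fold change of -1.37 to -0.999 over its 20 alternatives. The 2 most abundant members, 28 and 30 numbers below it, had a log2 fold change of 0.12 (95% interval -0.43 to 0.66) and 0.22 (95% interval -0.32 to 0.77) and are the third and the ninth of all tested transcripts by control tags. The lowest log2 fold change of the run, -1.34, belongs to the member 11 numbers below it and did not pass (SE 0.32, edgeR adjusted p = 0.0533).

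**Figure D3:**
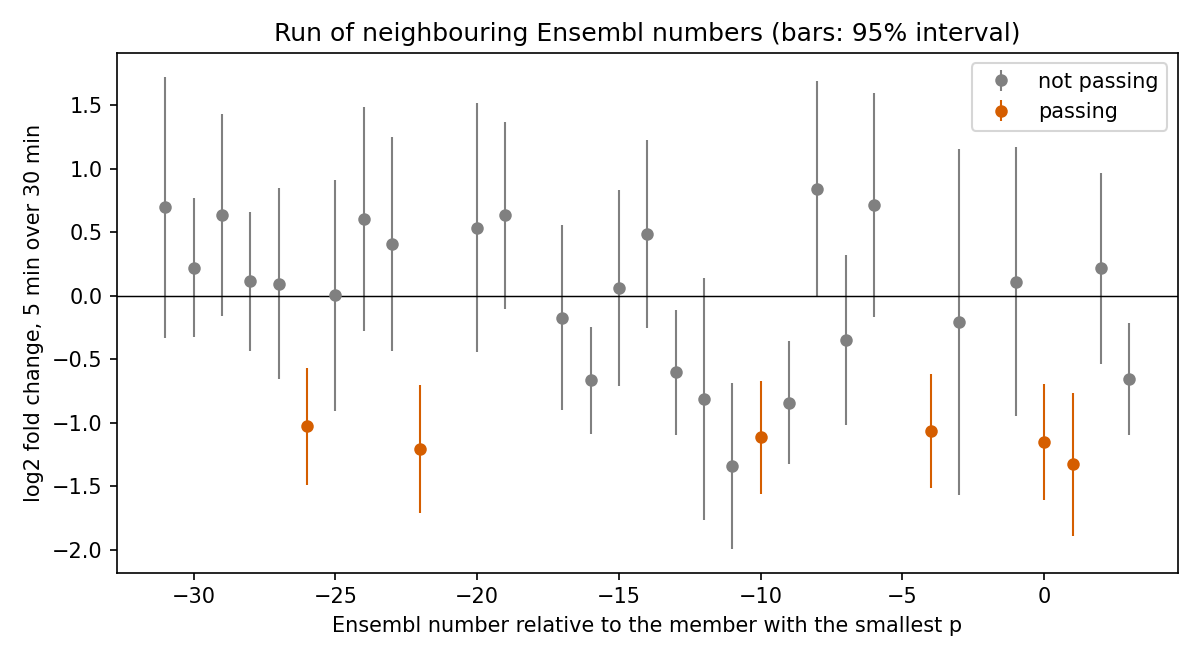
Log2 fold change, 5 min over 30 min, with its 95% interval for the 31 tested transcripts of the run, placed by their Ensembl number relative to ENSMUST00000082418 at 0. The 6 passing members lie between -1.33 and -1.03, and the other 25 lie between -1.34 and 0.84, on both sides of 0.

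As a share of all tags, the 6 passing members of the run held 0.218%, 0.319%, 0.227% and 0.315% in replicates 1 to 4 at 5 min and 0.604%, 0.373%, 0.655% and 0.626% at 30 min. The 12 passing transcripts outside it, the near copy of rank 6 included, held 0.135%, 0.174%, 0.142% and 0.199% at 5 min and 0.452%, 0.341%, 0.490% and 0.474% at 30 min. Both sets were chosen for this difference, so the shares describe its size and do not test it. The 25 other members of the run together held 1.16%, 3.20%, 1.84% and 2.10% at 5 min and 2.67%, 1.68%, 1.82% and 1.77% at 30 min, and these groups overlapped. Most of these tags belong to the 2 most abundant members. At an unadjusted p under 0.05, 5 of the 25 were lower at 5 min, with log2 fold changes of -1.34 to -0.60, and 0 were higher. Of all tested transcripts 4.68% were lower and 3.62% higher at this p. A difference between the 25 and the 6 was not tested. Within each time the share of the 25 was highest in the shallowest library and lowest in the deepest, which held 40173 and 341445 tags at 5 min and 81588 and 192471 at 30 min. The part of depth in their values was not tested.

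Background tags were set beside these values. In the deposit the noCre libraries are numbered together with the 30 min libraries, and no background library is numbered with those of 5 min. A difference between noCre and the 5 min libraries therefore coincides with deposit as well. The 18 passing transcripts held 29 of the 6478 noCre tags, or 0.448% (95% Wilson interval 0.312 to 0.642%, counting error only), against 0.432% ± 0.0830 of the tags at 5 min and 1.00% ± 0.197 at 30 min (SD, n = 4 each). Of the 18, 6 had 0 noCre tags and the most had 7. Across all tested transcripts the direction differed between bands of background. Among the 1560 with 0 noCre tags 46 were lower and 53 higher at 5 min at an unadjusted p under 0.05, with a median log2 fold change of 0.06. Among the 1162 with 1 or 2 noCre tags 51 were lower and 53 higher, with a median of 0.02. Among the 373 with 3 or more noCre tags 48 were lower and 6 higher, with a median of -0.06. The direction differed by level too. With a mean under 20 tags 59 were lower and 62 higher, and with 50 to under 200 tags 37 were lower and 13 higher. The bands of background were not matched for level, and the part of either in the differences was not tested. Without transcripts whose share was larger in noCre than in control tags 16 of 2023 passed, 13 of them among the 18.

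The activated libraries, opto at 5 min and at 30 min with 4 libraries each, share no library with the controls. They give a 5 min to 30 min difference of their own, with the same coincidence of time and deposit. In opto this difference may also hold an effect of activation, which cannot be told apart from time and deposit there. This comparison was added after the control result was seen. Of the 18 transcripts, 14 were tested in a fit of the 8 opto libraries, and 13 of these had a lower level at 5 min there too, against 50.2% of the 1654 transcripts tested. Their median log2 fold change was -1.02 in opto and -1.19 in the controls, and the median of all transcripts tested in opto was 0.00. These medians join unlike parts. The 6 passing members of the run and the near copy of rank 6 had -1.87 to -1.15 in opto, against -1.33 to -1.03 in the controls. The rest of the 14 had -0.89 to 0.14 in opto, against -2.85 to -0.92 in the controls. In opto, 2 of the 14 passed (edgeR adjusted p under 0.05), both in the run, where 3 of all tested (0.181%) passed in this direction. Another 11 transcripts passed as higher at 5 min in opto, whereas the controls had 0 on that side. All 6 passing members of the run were lower at 5 min in opto.

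ENSMUST00000173672 had a log2 fold change of -0.89 in opto (SE 0.38, edgeR adjusted p = 0.238), and ENSMUST00000082418 had -1.41 (SE 0.42, edgeR adjusted p = 0.108). The exception among the 14 was the transcript of rank 2, with 0.14 in opto (edgeR adjusted p = 0.935) and -2.19 in the controls. A test of the difference itself, as an interaction in the fit of all 16 libraries, found 0 of the 17 transcripts it covered passing, where 1 of 2871 (0.0348%) passed. At an unadjusted p under 0.05, 6 of the 17 differed between control and opto, and their smallest adjusted p was 0.331 in edgeR. All 6 lie outside the run, and they include the near copies of rank 14 and 15. The 17 were chosen for their control difference, which enters this test, so small p-values are favoured among them. The share of all 2871 at this unadjusted p is not given here, so no conclusion is drawn from the 6. Across the 1649 transcripts tested in both, the control and the opto time differences correlated with Pearson's r = 0.379 and Spearman's rho = 0.335, given as a description without a test, since transcripts share libraries.

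**Figure D4:**
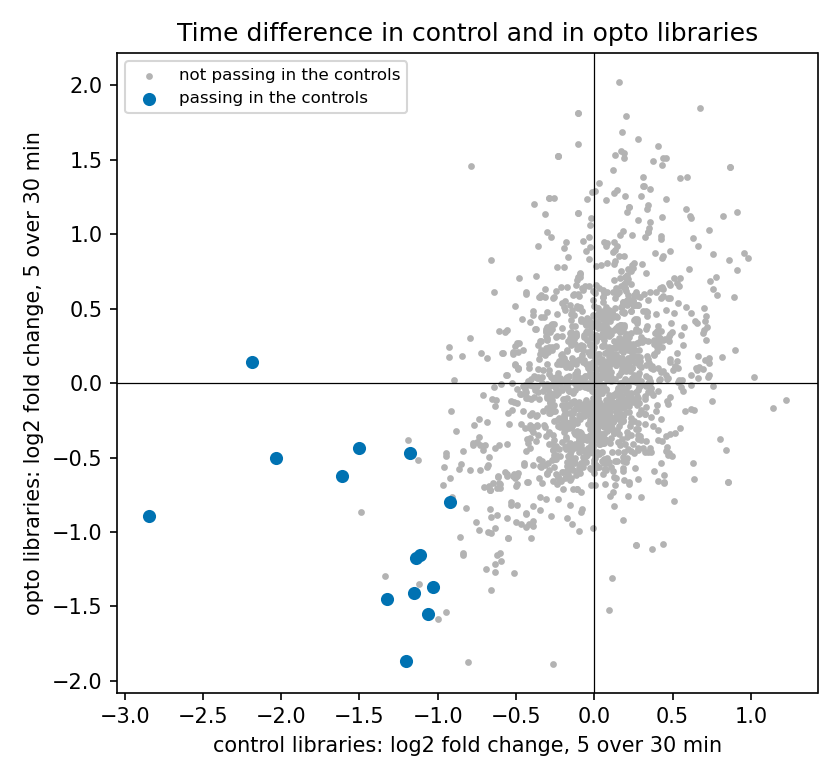
Log2 fold change, 5 min over 30 min, in the control libraries against the same in the opto libraries for the 1649 transcripts tested in both. Of the 14 transcripts passing in the controls (large points), 13 lie below 0 in opto as well.

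Opto 30 min replicate 1, the shallowest of the 16 with 20456 tags, had the largest share of the passing transcripts of the run, 1.64%, against 0.357%, 0.503% and 0.848% in replicates 2 to 4 and 0.186% to 0.383% at 5 min. Without it, 36 of 2070 transcripts passed in opto, 11 of them lower at 5 min. Of the transcripts that passed in the controls, 12 of the 15 tested were lower at 5 min in opto (against 51.4% of all tested), with a median log2 fold change of -0.83, and all 6 of the run were among the lower ones. For the 12 outside the run the opto shares overlapped between the times, with 0.123% to 0.355% at 5 min and 0.214% to 0.636% at 30 min.

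**Figure D5:**
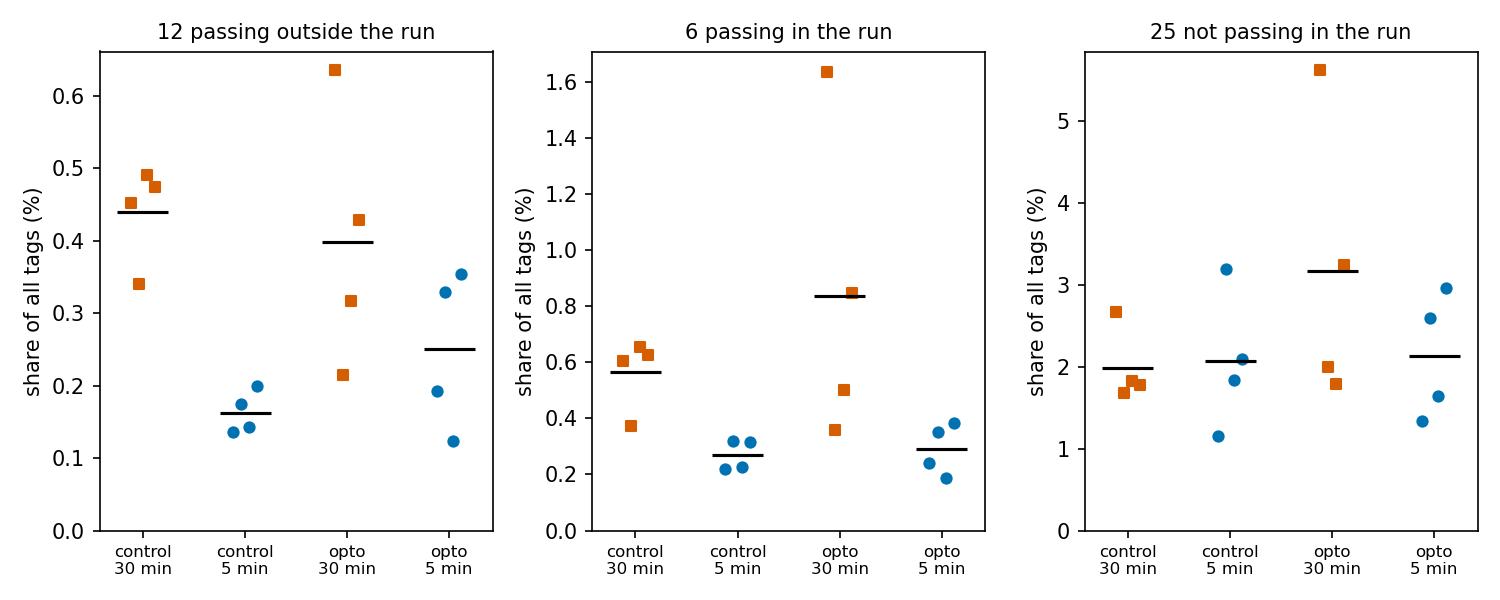
Share of all tags, in percent, held by 3 sets of transcripts in each control and opto library, with replicates 1 to 4 from left to right and the mean as a bar. The 2 sets of passing transcripts are lower at 5 min in every control library, and the 25 other members of the run overlap between the times.

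Transcripts listed at 1 time alone were rare ones. Of the 44346 listed, 50 had a tag in all 4 libraries at 30 min and none at 5 min, and 19 had the reverse. The largest of these had 13 and 9 tags summed over the 4 libraries that listed it. The shallowest library held 40173 tags at 5 min and 81588 at 30 min. All 4 libraries together held 699501 tags at 5 min and 590648 at 30 min. Presence or absence and the part of depth in these counts were not tested.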

How the data were processed

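The deposited tables hold whole-number counts of CLIP tags per transcript, with no normalization, per the file headers, and list no transcript with 0 tags, which was taken as 0. Per the submitters' processing notes, cutadapt, STAR and the mm10 build were used. Handling of duplicates and assignment of tags to isoforms are not given in the sources used here, and both could change counts.

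Control libraries were fitted alone in edgeR 4.0.16 (R 4.3.3) with TMM scaling, default filterByExpr settings (minimum count 10, total 15), the quasi-likelihood test and Benjamini-Hochberg adjustment over 3095 transcripts, which held 66.4% to 72.1% of each library's tags. The biological coefficient of variation was 0.187. A batch term could not be fitted, since time and deposit coincide. The pipeline was tested on simulated data. Taking 3 tags as the limit that 0 tags allow, shares under 0.00747% of the shallowest and 0.000879% of the deepest library could go unseen, by counting error only.

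The naming rule took the 10 transcripts with the smallest p in each direction and the 10 with the most control tags. IDs are printed for the smallest p, the smallest p of the number run and 2 higher at 5 min, a choice made after values were seen. The libraries, lists and tests were chosen with earlier results of these data known. The gene table (assembly GRCm38.p6) matched 0 IDs, so gene lists, 5 genes to be reported whatever their values and cell type markers were not analysed. Alternatives used DESeq2 1.42.0 and limma 3.58.1, and plots matplotlib 3.10.9. Same-numbered control libraries deviated with correlations of -0.397 to 0.311 and were not treated as paired.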

Additional observations from a re-analysis of the deposited data

Results flagged for a closer look

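A library stood apart from the other 3 of its time in 7 of the 84 groups of 4 examined. Chance gives about 1 in 20 for separate groups. Many of the 84 share transcripts and tags, so the count is not compared with that rate. At 5 min, replicate 2 listed 10538 transcripts at equal depth, against 11763 to 11874 in the others, and had 8372 CPM of the transcript with the seventh most control tags, against 5648 to 5956. At 30 min, replicate 2 had the low value of 2 passing transcripts of the number run, with 1147 CPM of ENSMUST00000082418 against 2091 to 2254, and 1398 CPM of the transcript of rank 11 against 2481 to 2637. At 30 min, replicate 1 had 8845 CPM of the transcript with the ninth most control tags, against 4551 to 5222, and 2.67% of its tags in the 25 members of the run that did not pass, against 1.68% to 1.82%. At 30 min, replicate 3 had 236 CPM of the transcript of rank 5, against 97.1 to 114.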

How the results depend on the processing

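The 18 passing transcripts became 10 with no filter beyond 1 tag (9 lower and 1 higher at 5 min, 44346 tested), 7 after thinning, 5 in the fit of all 16 Cre-positive libraries and 37 in limma voom, and 2 to 39 when each library was left out in turn. DESeq2 size factors gave 21, library totals 18, a mean of at least 20 tags 14, the DESeq2 test 21, removal of background-rich transcripts 16 and identical transcripts kept once 21. Library depth as a covariate, chosen after seeing the data, gave 19, 17 of them among the 18. With the replicate block 13 passed, all among the 18, although the numbers are not known to pair the libraries. The median over all tested transcripts stayed between -0.01 and 0.06 under 20 alternatives. The 5 min to 30 min ratio of total tags, 0.949, was 1.18 for arithmetic means and 0.693 to 1.41 when each library was left out (1.05 and 1.03 without 30 min replicates 2 and 4, 1.41 and 1.01 without 5 min replicates 2 and 3), and a sign-flip test on same-numbered pairs gave an exact p of 0.875. Sums per gene were not run, since the IDs could not be paired with genes. Depth limits the rarest transcripts: 3 tags are 110 CPM in the shallowest library.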
